A study of Mus musculus with 46 samples.

Results

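MicroRNA (miRNA) levels in mammary tumors of MMTV-PymT mice were compared with those in mammary glands of pregnant mice without a tumor. The 11 arrays were chosen by their labels, 6 of MMTV-PymT tumors and 5 of normal FVB pregnant gland, out of 46 arrays in all, which cover 41 tumors of 8 mouse models and the 5 normal glands. All 11 samples were from female mice of the FVB strain. The MMTV-PymT tumors were primary mammary tumors driven by the polyoma middle T antigen (PymT) under the promoter of the mouse mammary tumor virus (MMTV), which is active in mammary epithelium and also in some other tissues, among them lymphoid cells and salivary gland. No transgene and no treatment is given for the normal glands, which were taken late in pregnancy, and no age is given for either group. The tumors came from different mice, while nothing in the labels says whether the normal arrays were of separate mice, so p-values measure the spread between these samples, which may in part be technical. RNA carrying the Hy3 dye was measured on a custom array with 4 spots for each of 334 mouse miRNAs.

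miRNAs are short RNAs that guide Argonaute proteins to messenger RNAs and lower their stability and translation. Target choice rests mostly on the seed, bases 2 to 8 of the mature miRNA, so miRNAs with one seed form a family with overlapping targets, and miRNAs that lie close together in the genome are often cut from one transcript. The middle T antigen is a membrane-bound viral protein that activates Src kinases and the phosphoinositide 3-kinase pathway, and MMTV-PymT tumors are a common model of luminal mammary cancer. The gland of late pregnancy is rich in secretory epithelium and also holds fat, fibroblasts, myoepithelium, blood vessels and blood cells.

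The following mature sequences are those of the miRNAs that were lower in MMTV-PymT tumors and on which the results turn. They are the Hox cluster miRNAs, the pairs miR-103 with miR-107 and miR-221 with miR-222, and 3 of the leading single miRNAs. All sequences are from RefSeq (build GRCm38.p6), written 5′ to 3′ with the seed in capitals.
miR-10a: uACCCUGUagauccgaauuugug
miR-10b: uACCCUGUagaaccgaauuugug
miR-196a: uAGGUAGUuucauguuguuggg
miR-196b: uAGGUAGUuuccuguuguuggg
miR-103: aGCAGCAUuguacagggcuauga
miR-107: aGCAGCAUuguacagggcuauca
miR-221: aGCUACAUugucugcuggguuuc
miR-222: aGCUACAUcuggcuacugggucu
miR-129-5p: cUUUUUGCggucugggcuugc
miR-382: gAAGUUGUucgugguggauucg
miR-449: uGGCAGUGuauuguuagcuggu

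miR-10a and miR-10b have one seed and differ by U12A, miR-196a and miR-196b by A12C, and miR-103 and miR-107 by G22C (positions from the 5′ end, the base of the first-named miRNA first). Pairs this close can share signal on an array, so the split of a change within each pair is uncertain. In GRCm38.p6 miR-10a lies at chr11:96317186-96317208 (plus strand), in the span of Hoxb3, and miR-10b at chr2:74726074-74726096 (plus strand), in the spans of Hoxd3 and Hoxd4. miR-196b lies at chr6:52230129-52230150 (minus strand), between Hoxa9 and Hoxa10. miR-196a has 2 copies, at chr11:96265187-96265208 beside Hoxb9 and at chr15:102973365-102973386 between Hoxc10 and Hoxc9. The copies of miR-103 lie within the spans of Pank3 (chr11:35782447-35782469) and Pank2 (chr2:131288103-131288125), and miR-107 within that of Pank1 (chr19:34820700-34820722), all 3 of them pantothenate kinase genes. The hairpins of miR-221 and miR-222 lie within 678 bases of each other on chromosome X (chrX:19146294-19146971, minus strand).

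The mature sequences shown next belong to the families and clusters with members that were higher in MMTV-PymT tumors, each with the relatives that were not, and to the single miRNAs miR-21, miR-31 and miR-33. The capitals again mark the seed.
miR-17-5p: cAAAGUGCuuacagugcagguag
miR-20a: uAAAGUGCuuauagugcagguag
miR-20b: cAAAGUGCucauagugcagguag
miR-106a: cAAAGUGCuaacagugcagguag
miR-19a: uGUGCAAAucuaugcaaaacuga
miR-19b: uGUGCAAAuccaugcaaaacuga
miR-141: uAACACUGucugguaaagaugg
miR-200a: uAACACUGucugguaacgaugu
miR-200b: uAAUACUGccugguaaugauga
miR-200c: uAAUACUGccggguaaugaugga
miR-429: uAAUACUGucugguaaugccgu
miR-27a: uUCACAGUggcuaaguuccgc
miR-27b: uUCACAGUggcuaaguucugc
miR-130a: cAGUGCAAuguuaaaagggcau
miR-130b: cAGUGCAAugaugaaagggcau
miR-301: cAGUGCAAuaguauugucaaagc
miR-21: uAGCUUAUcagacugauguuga
miR-31: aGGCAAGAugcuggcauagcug
miR-33: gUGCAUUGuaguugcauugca

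miR-17-5p, miR-20a, miR-20b and miR-106a share 1 seed, but the first pair is cut from the miR-17-92 cluster (6 hairpins in 836 bases, chr14:115043671-115044506) and the other pair from its paralog, the miR-106a-363 cluster (6 hairpins in 875 bases, chrX:52741693-52742567). miR-106a differs from miR-17-5p by A10U and miR-19a from miR-19b by U11C. miR-19b and miR-92 each have a copy in both clusters, so their signals cannot be assigned to either of them. miR-200 family members fall into 2 seeds that differ at 1 base, and into 2 loci, miR-200c with miR-141 on chromosome 6 (chr6:124717914-124718390) and miR-200b, miR-200a and miR-429 on chromosome 4 (chr4:156053905-156055750). miR-141 and miR-200a share a seed and lie at different loci. miR-27a and miR-27b differ by C19U and are cut from different clusters (chr8:84208518-84208921 and chr13:63300484-63301275). As with the lower pairs, miRNAs that differ by 1 base can share signal on an array, so the split of a change between them is uncertain. miR-130b and miR-301b lie within 436 bases of each other (chr16:17124061-17124496). miR-21 lies in the span of Vmp1 and miR-33 in that of Srebf2, which encodes a regulator of cholesterol synthesis.

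Signal was well above background on all 11 arrays, and the arrays of the groups differed in brightness. The 5th percentile of the spots of an array, taken as its floor, was 22.1 to 33.5 on MMTV-PymT arrays and 21.3 to 34.6 on normal gland arrays (difference 1.58, exact permutation test, two-sided p = 0.645). The median signal was 440 to 715 and 172 to 494 (exact permutation p = 0.0152), and 231 to 271 miRNAs against 199 to 236 lay above 3 times the floor (difference 29.6, exact permutation p = 0.0173). The 4 spots of each miRNA had a median SD of 0.16 on the log2 scale. The study compared some miRNAs of this array with real-time PCR. It reported a strong correlation for miR-10b, miR-107, miR-193, miR-200b and let-7f, among others. For miR-30b the association was modest, and for miR-155, miR-301 and miR-135b it was weak or absent. MMTV-PymT replicates 5 and 6 stood apart from replicates 1 to 4. Over the 334 miRNAs, the correlation was 0.954 to 0.986 among replicates 1 to 4 and 0.930 between 5 and 6, but 0.821 to 0.873 between the 2 sets. With the normal glands, replicates 1 to 4 correlated at 0.737 to 0.854 and replicates 5 and 6 at 0.854 to 0.937, so these 2 tumors were the nearest to normal gland. The main results are therefore also given without them and from them alone, alternatives chosen after seeing the data. The split was found in these same values, and without the 2 tumors nearest to normal gland more miRNAs are called. Adjusted p-values from either subset thus describe the split and are no separate evidence for a miRNA that did not pass with all 6 tumors.

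Levels below are log2 signals relative to the median of all spots on the same array, averaged over 4 spots, so a difference of 1 is a 2-fold difference. They compare 1 miRNA between arrays and not miRNAs with each other. Differences are MMTV-PymT minus normal gland with their standard error (SE, 6 and 5 arrays), and a miRNA is called higher or lower at a limma p adjusted over 334 miRNAs (Benjamini-Hochberg) under 0.05, two-sided.

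MMTV-PymT tumors differed from normal gland in 34.7% of the miRNAs tested, with 51 higher (15.3%) and 65 lower (19.5%). Among those without overlap, the highest were led by miR-20b of the miR-106a-363 cluster, miR-301b, the miR-200 family member miR-141 and miR-431, and the lowest by miR-129-5p, miR-382, miR-449 and the Hox cluster miRNAs. The 2 groups did not overlap for 21 miRNAs that were higher (6.29% of those tested) and 34 that were lower (10.2%). Of the called miRNAs, 42 of the 51 higher ones lay above 3 times the floor on every MMTV-PymT array and 50 of the 65 lower ones on every normal array, while 7 lower ones were below it on all normal arrays. In bulk tissue, fewer cells of a type and less RNA per cell cannot be told apart, here or in the results that follow.

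**Figure D1:**
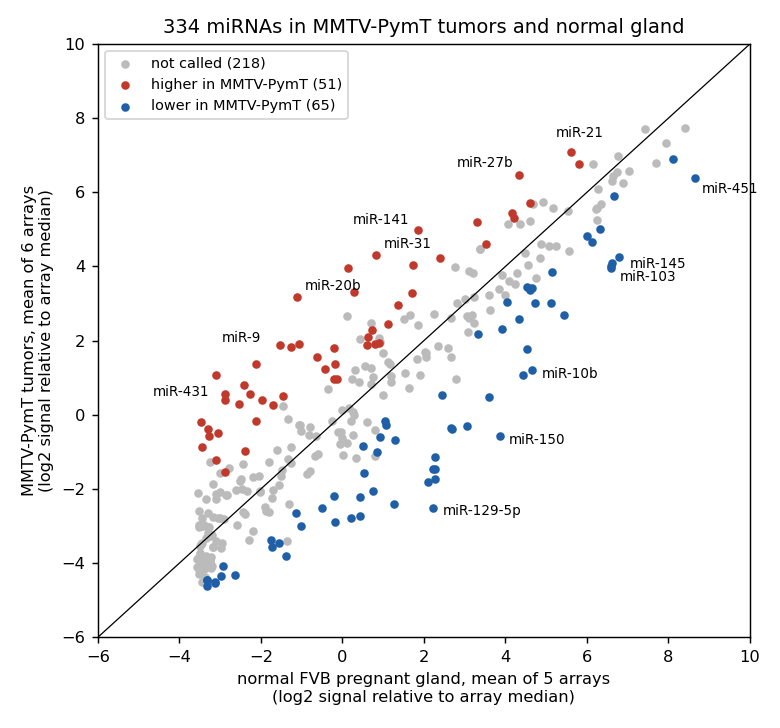
Mean log2 signal relative to the array median for each of 334 miRNAs, in 5 normal glands (x axis) and 6 MMTV-PymT tumors (y axis); points above the diagonal are higher in the tumors, 51 of them called higher (red) and 65 lower (blue). miR-20b, miR-141 and miR-31 lie far above the diagonal and miR-129-5p, miR-10b and miR-150 far below it.

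The balance of higher and lower calls followed the scaling of the arrays. With the median subtracted, 44% of the calls were higher and the median difference over all miRNAs was -0.34, and without any scaling 115 miRNAs were higher and 23 lower (83.3% higher, median difference 0.53). With the miRNAs above the 75th percentile as the reference 57.4% of 129 calls were higher (median -0.07), and with quantile normalization 52.1% (median -0.08). The 10 leading miRNAs of each direction kept their call under each of these scalings. Replicates 1 to 4 alone gave 91 higher and 112 lower, including all 51 and 64 of the 65 called from 6 arrays. Replicates 5 and 6 alone gave 23 higher and 30 lower, and 50 of the 51 and all 65 had the same sign there.

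**Figure D2:**
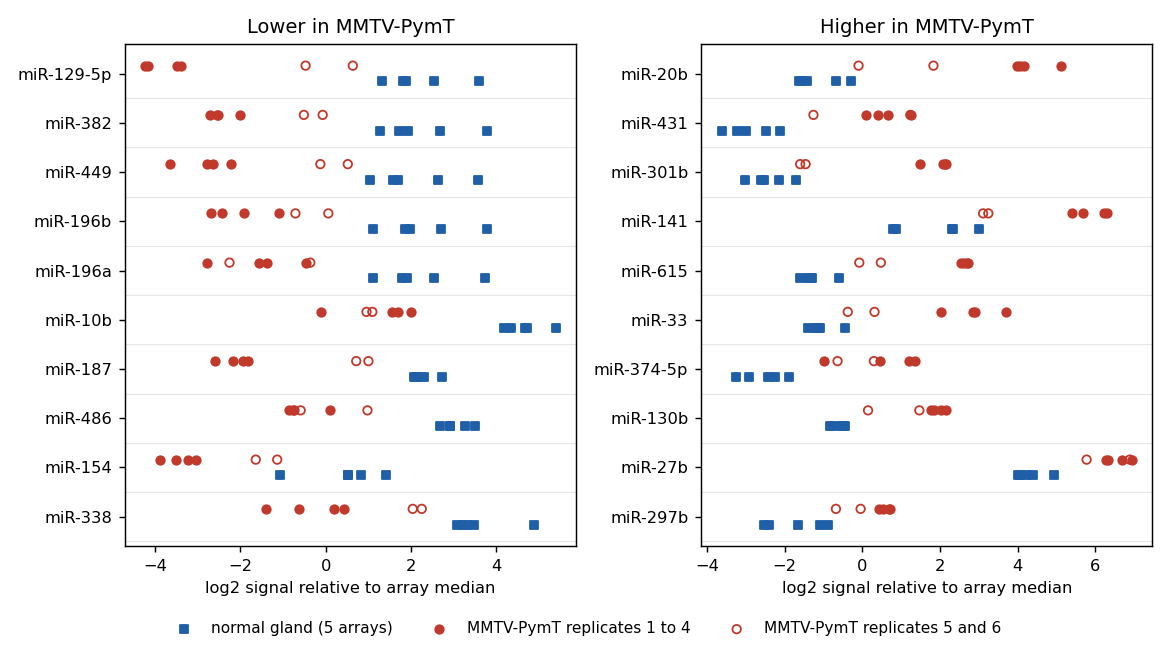
Log2 signal relative to the array median (x axis) on each array for the 10 miRNAs with the largest differences in each direction among those called, without overlap and above 3 times the floor in the higher group. Squares are normal glands, filled circles MMTV-PymT replicates 1 to 4 and open circles replicates 5 and 6. The open circles lie nearer to the normal glands for most miRNAs, such as miR-129-5p and miR-301b, but not for miR-10b. For miR-431 only replicate 6 lies nearer, and for miR-27b only replicate 5.

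The miR-10 and miR-196 pairs of the Hox clusters, which are expressed with the neighbouring Hox genes along the body axis and target Hox transcripts, were all lower in the tumors. The 4 miRNAs were called lower with no overlap between the groups, against 10.2% of all miRNAs that were lower without overlap. Their median difference was -3.57 against -0.34 over all miRNAs, and all 4 were called lower under every scaling tried. miR-10b, which promotes invasion in human breast cancer cells, had levels of -0.10, 2.00, 1.55, 1.69, 0.95 and 1.09 in MMTV-PymT replicates 1 to 6 and 5.39, 4.34, 4.18, 4.71 and 4.67 in normal replicates 1 to 5. Every tumor lay more than 2 units below every normal gland. The difference was -3.46 ± 0.39 (SE, adjusted p = 9.42e-05), an 11.0-fold lower signal, and it was as large in replicates 5 and 6 alone, at -3.64 (adjusted p = 0.000116). Its relative miR-10a had levels of 0.75, 2.15, -0.32, 2.12, 3.78 and 2.13 in the tumors and 5.58, 4.73, 4.57, 3.94 and 3.83 in the normal glands. Replicate 5 came within 0.1 of the lowest normal gland. The difference was -2.76 ± 0.61 (SE, adjusted p = 0.00363), -3.35 (adjusted p = 8.15e-05) in replicates 1 to 4 alone and -1.58 (adjusted p = 0.0796) in replicates 5 and 6 alone.

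miR-196a, which cuts the transcript of Hoxb8, had levels of -1.56, -1.37, -0.47, -2.79, -2.26 and -0.36 in the tumors and 1.11, 2.53, 3.74, 1.90 and 1.78 in normal gland. miR-196b, its partner of the Hoxa cluster, had levels of -2.43, -1.91, -1.09, -2.69, -0.71 and 0.06 and 1.10, 2.71, 3.78, 1.97 and 1.85. The normal glands spread over more than 2 units in both, from replicate 1 at the low end to replicate 3 at the high end, and still lay above all tumors. The differences were -3.68 ± 0.54 (SE, adjusted p = 0.000309) and -3.74 ± 0.57 (SE, adjusted p = 0.000409), with miR-196a above 3 times the floor on 5 of 6 tumor arrays (not on replicate 5) and miR-196b on all 6. In replicates 5 and 6 alone they were -3.52 (adjusted p = 0.00295) and -2.61 (adjusted p = 0.0123). A further miRNA of a Hox cluster, miR-615 of the Hoxc cluster, went the other way and is given with the higher miRNAs.

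Among the miRNAs without overlap, the 3 with the largest lower differences were miR-129-5p, miR-382 of the imprinted Dlk1-Dio3 region and miR-449, which has the seed of the p53-induced miR-34 family and is known from multiciliated cells. miR-129-5p had levels of -3.39, -4.23, -3.48, -4.17, -0.47 and 0.63 in the tumors and 1.31, 2.55, 3.60, 1.88 and 1.81 in normal gland, a difference of -4.75 ± 0.85 (SE, adjusted p = 0.00116). It lay above 3 times the floor on 2 of the 6 MMTV-PymT arrays, replicates 5 and 6. miR-382 had levels of -2.52, -2.71, -2.00, -2.56, -0.51 and -0.07 and 1.26, 2.68, 3.78, 1.73 and 1.92, a difference of -4.01 ± 0.58 (SE, adjusted p = 0.000309). miR-449 had levels of -2.65, -3.66, -2.21, -2.79, 0.52 and -0.13 and 1.04, 2.64, 3.58, 1.70 and 1.59, a difference of -3.93 ± 0.73 (SE, adjusted p = 0.00119). All 3 were lowest in replicates 1 to 4, and their differences in replicates 5 and 6 alone were -2.15, -2.57 and -1.91 (adjusted p = 0.0262, 0.0123 and 0.0466). The other members of the miR-34 and miR-449 family did not pass the test (1 of 5 lower), with miR-34a at -0.76 (adjusted p = 0.155) and miR-34c at -0.79 (adjusted p = 0.101).

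These 3 miRNAs and the pair miR-196a and miR-196b had almost the same values on each normal array, although they have 4 different seeds and lie at different loci. The 5 values lay within 0.18 to 0.33 of each other on every normal array, from 1.04 to 1.31 in replicate 1 and from 3.58 to 3.78 in replicate 3, but 1.00 to 3.01 apart on the MMTV-PymT arrays. Among the 191 miRNAs above 3 times the floor on all normal arrays, 47 had at least 1 other miRNA within 0.3 on every normal array, and 7 had at least 4. The shared pattern was wider than these 5. Over the normal arrays 12 other miRNAs, the rest of the 5 among them, correlated with miR-129-5p above 0.97. Of these 12, 11 were called lower, against 19.5% of all miRNAs. The 5 differences are thus not 5 separate patterns over the normal glands, and whether their probes share a source of signal was not tested.

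**Figure D3:**
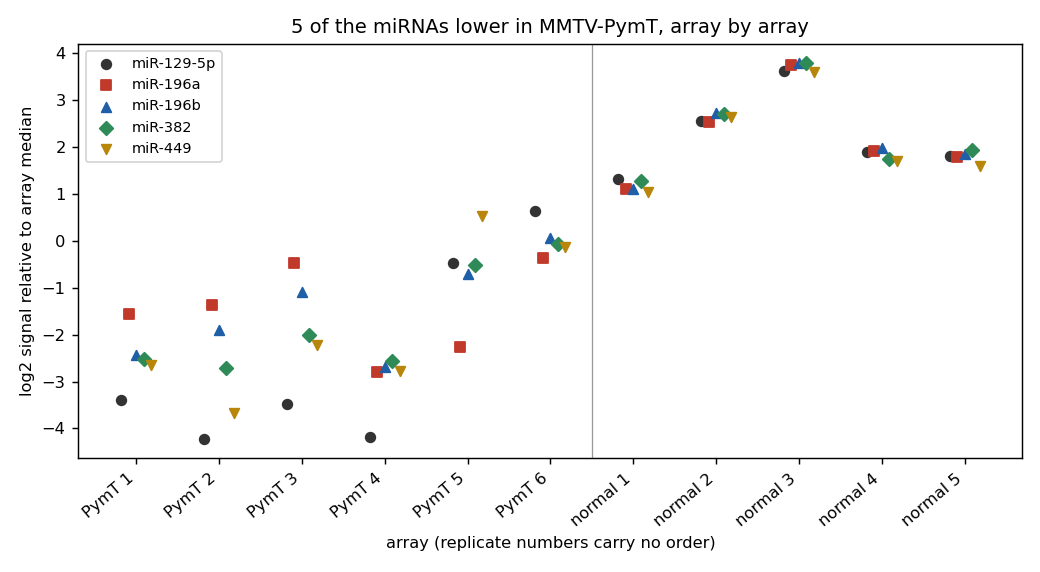
Log2 signal relative to the array median (y axis) of miR-129-5p, miR-196a, miR-196b, miR-382 and miR-449 on each of the 6 MMTV-PymT and 5 normal gland arrays (x axis). The 5 symbols fall within 0.33 of each other on each normal array and spread over 1.00 to 3.01 on the tumor arrays.

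miR-103 and miR-107, which lie in introns of pantothenate kinase genes and target Dicer and regulators of insulin signaling, were both lower. miR-103 had levels of 3.46, 3.73, 3.74, 3.66, 4.50 and 4.96 in the tumors and 7.05, 6.72, 6.71, 6.32 and 6.19 in normal gland, a 6.01-fold lower signal. All tumors lay at least 1 unit below all normal glands. The difference was -2.59 ± 0.34 (SE, adjusted p = 0.000228) for miR-103 and -2.62 ± 0.36 (SE, adjusted p = 0.000291) for miR-107, with -1.87 and -1.79 in replicates 5 and 6 alone (adjusted p = 0.0123 and 0.0165). Both were called lower under every scaling tried.

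miR-221 and miR-222, which target the cell cycle inhibitor Cdkn1b and, in human breast cancer cells, the estrogen receptor, were also both lower without overlap. miR-221 had levels of 2.28, 2.19, 2.23, 2.30, 3.23 and 3.23 in the tumors and 4.73, 3.92, 4.26, 4.44 and 4.30 in normal gland, a difference of -1.75 ± 0.32 (SE, adjusted p = 0.00116). miR-222 had levels of 0.15, -0.15, 0.07, -0.01, 1.67 and 1.47 and 3.14, 1.85, 1.89, 2.78 and 2.60, a difference of -1.92 ± 0.43 (SE, adjusted p = 0.00363). Replicates 1 to 4 were nearly alike in both, and replicates 5 and 6 lay between them and the normal glands. Neither was called in replicates 5 and 6 alone, at -1.10 (adjusted p = 0.105) and -0.88 (adjusted p = 0.267), and neither without scaling, where the differences were -0.88 and -1.05.

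Of the other leading lower miRNAs, miR-187 fell 10.6-fold, from 2.06 to 2.72 in normal gland to -2.59 to 1.00 in the tumors, a difference of -3.40 ± 0.63 (SE, adjusted p = 0.00119). miR-154, like miR-382 a miRNA of the Dlk1-Dio3 region, differed by -3.18 ± 0.56 (SE, adjusted p = 0.00104) and was above 3 times the floor on 3 of 6 tumor arrays. miR-338, known from neurons and oligodendrocytes, differed by -3.11 ± 0.63 (SE, adjusted p = 0.00202). In these 3, replicates 5 and 6 were the 2 tumors nearest to normal gland, and alone they gave -1.41 (adjusted p = 0.042) and -1.83 (adjusted p = 0.0466), both called, and -1.45 (adjusted p = 0.0794), which did not pass. miR-139, which lies in an intron of the phosphodiesterase gene Pde2a, had levels of -3.57 to -1.25 in the tumors and -0.08 to 0.81 in normal gland, a difference of -3.00 ± 0.40 (SE, adjusted p = 0.000228) that was as large in replicates 5 and 6 alone (-3.25). Its signal in replicates 5 and 6 was below 3 times the floor, so the size of that difference is limited by the floor. miR-805, which the study lists on the mitochondrial chromosome, was 5.81-fold lower (-2.54 ± 0.46 (SE, adjusted p = 0.00116)). Its normal replicates 1 to 3 were at 7.31, 7.72 and 7.38 and normal replicates 4 and 5 at 5.38 and 5.33, all above the tumors (3.89 to 4.49). miR-375, an islet and epithelial miRNA, was lower by -2.67 (adjusted p = 0.00967), with overlap.

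Among the higher miRNAs, the miR-106a-363 cluster and its paralog miR-17-92, oncogenic clusters that target the proapoptotic Bim, held the largest difference. miR-20b had levels of 5.11, 3.99, 4.06, 4.17, 1.83 and -0.10 in the tumors and -0.29, -1.63, -1.42, -1.55 and -0.67 in normal gland. Replicates 1 to 4 lay more than 4 units above every normal gland, replicate 5 more than 2 units above the highest, and replicate 6 just above it. The difference was 4.29 ± 0.77 (SE, adjusted p = 0.00116), or 19.5-fold, with 5.44 (adjusted p = 1.04e-07) in replicates 1 to 4 alone and 1.98 (adjusted p = 0.0337) in replicates 5 and 6 alone. miR-106a, cut from the same transcript, had levels of 5.38, 4.48, 4.26, 4.71, 2.96 and 2.44 and 2.45, 1.00, 1.27, 1.84 and 2.14 and differed by 2.30 ± 0.51 (SE, adjusted p = 0.0037). Tumor replicate 6 lay just below normal replicate 1, so the groups overlapped. miR-363, at the end of the same cluster, was at 0.26 (adjusted p = 0.716) and was above 3 times the floor on 2 of 6 tumor arrays and no normal array.

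In the miR-17-92 cluster miR-19a and miR-19b, the members most tied to its oncogenic activity, were higher, and 2 of 6 members passed the test, against 15.3% of all miRNAs. Of these 2, miR-19b also has a copy in the miR-106a-363 cluster, as does the further member miR-92. miR-19a had levels of 5.68, 5.05, 4.62, 4.95, 1.41 and 1.98 in the tumors and 1.48, -0.36, -0.31, -0.24 and 0.18 in normal gland, a difference of 3.80 ± 0.74 (SE, adjusted p = 0.00172). miR-19b had levels of 6.29, 5.68, 5.13, 5.49, 4.13 and 4.39 and 4.31, 3.04, 3.00, 3.18 and 2.97, a difference of 1.89 ± 0.43 (SE, adjusted p = 0.00404). In both, replicates 5 and 6 fell close to the highest normal gland, replicate 1, and alone they gave 1.54 (adjusted p = 0.0685) and 0.96 (adjusted p = 0.216). miR-17-5p was at 1.10 (adjusted p = 0.103), miR-18 at 1.03 (adjusted p = 0.0927), miR-20a at 1.09 (adjusted p = 0.0544) and miR-92 at 1.07 (adjusted p = 0.0585). In replicates 1 to 4 alone, a subset chosen after seeing the data, miR-17-5p was at 1.55 (adjusted p = 0.0122) and miR-20a at 1.45 (adjusted p = 0.00535). There miR-92 was at 1.43 (adjusted p = 0.00558) and miR-18 at 1.17 (adjusted p = 0.0522). All 6 were called higher without scaling or with the miRNAs above the 75th percentile as the reference. The list median was 1.09 against -0.34 over all miRNAs. The third paralog, miR-106b-25, gave no call, with miR-106b at 0.75 (adjusted p = 0.0619), miR-93 at 0.60 (adjusted p = 0.155) and miR-25 at -0.47 (adjusted p = 0.276).

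The miR-200 family, which represses the transcription factors Zeb1 and Zeb2 and so maintains E-cadherin and the epithelial state, split within its seeds and loci. Of 5 members, 3 were higher and none lower (median 1.09), against 15.3% and 19.5% of all miRNAs. All 5 were above 3 times the floor on all 11 arrays. miR-141 had levels of 6.31, 6.22, 5.39, 5.68, 3.11 and 3.24 in the tumors and 2.30, 0.80, 0.86, 3.01 and 2.33 in normal gland. The first 4 replicates lay far above all normal glands, and replicates 5 and 6 just above the highest. The difference was 3.13 ± 0.67 (SE, adjusted p = 0.00285), or 8.77-fold, with 4.04 (adjusted p = 5.02e-06) in replicates 1 to 4 alone and 1.32 (adjusted p = 0.162) in replicates 5 and 6 alone. miR-200a, which has the same seed and, by A17C and another base at the 3′ end, nearly the same sequence, was at -0.90 (adjusted p = 0.124), and in replicates 1 to 4 alone it was lower, at -1.41 (adjusted p = 0.00285). miR-200c, cut from the same transcript as miR-141, differed by 1.09 ± 0.37 (SE, adjusted p = 0.0373), and miR-429 by 1.10 ± 0.38 (SE, adjusted p = 0.0391). These 2 calls were at the edge of the threshold. When each array was left out in turn, miR-200c kept its call without MMTV-PymT 5 or 6 or normal 4 or 5 and lost it otherwise (adjusted p = 0.0225 to 0.0963), and miR-429 kept it without MMTV-PymT 1, 5 or 6 or normal 1, 4 or 5 (adjusted p = 0.0288 to 0.106). miR-200b was at 0.83 (adjusted p = 0.155). Of the 2 further epithelial miRNAs, miR-205, which marks basal cells, was at -1.04 (adjusted p = 0.0927) and miR-203, which limits the growth of skin stem cells, at -0.39 (adjusted p = 0.595).

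**Figure D4:**
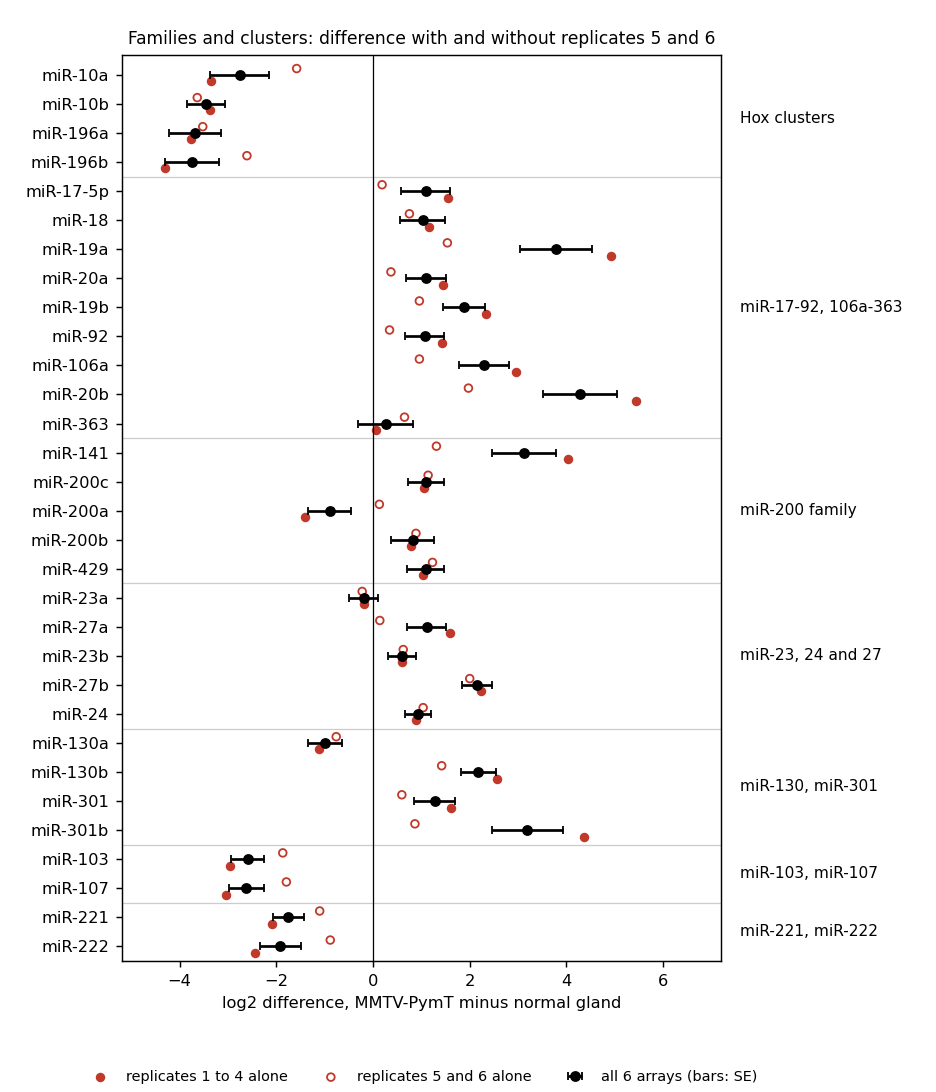
Log2 difference between MMTV-PymT tumors and normal gland (x axis) for the members of 7 families and clusters, from all 6 tumor arrays with SE bars (black), from replicates 1 to 4 alone (filled red) and from replicates 5 and 6 alone (open red). The miR-10 and miR-196 miRNAs lie at -2.76 to -3.74 in all 6 arrays, while miR-19a, miR-20b, miR-141 and miR-301b reach 3.13 to 4.29 and shrink in replicates 5 and 6.

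In the miR-23, miR-24 and miR-27 clusters, 4 of 6 miRNAs were higher and none lower (median 1.02), against 15.3% and 19.5% of all miRNAs. miR-27b, which inhibits fat cell differentiation by targeting Pparg, had levels of 6.67, 6.94, 6.33, 6.28, 5.77 and 6.88 in the tumors and 4.94, 4.23, 4.02, 4.39 and 4.05 in normal gland. All tumors, replicates 5 and 6 included, lay above all normal glands. The difference was 2.16 ± 0.31 (SE, adjusted p = 0.000309), or 4.46-fold, and 2.00 (adjusted p = 0.0123) in replicates 5 and 6 alone. miR-24, which is cut from both clusters and targets cell cycle genes, differed by 0.94 ± 0.28 (SE, adjusted p = 0.0188), and miR-189, the other arm of one of its hairpins, by 1.17 ± 0.31 (SE, adjusted p = 0.0106). miR-27a differed by 1.11 ± 0.41 (SE, adjusted p = 0.0465), with 1.60 (adjusted p = 0.000589) in replicates 1 to 4 alone and 0.14 (adjusted p = 0.869) in replicates 5 and 6 alone. It kept its call only without MMTV-PymT 5, MMTV-PymT 6 or normal 1 (adjusted p = 0.0088 to 0.102 with 1 array left out). miR-23a was at -0.19 (adjusted p = 0.6) and miR-23b at 0.61 (adjusted p = 0.116).

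The miR-130 and miR-301 family, whose members share a seed and target growth and differentiation genes, had 3 members higher and 1 lower of 4. Over all miRNAs the shares were 15.3% and 19.5%. miR-130b had levels of 2.14, 1.85, 1.76, 2.01, 1.47 and 0.15 in the tumors and -0.50, -0.54, -0.78, -0.82 and -0.45 in normal gland, with no overlap and a difference of 2.18 ± 0.36 (SE, adjusted p = 0.000903). miR-301b, its neighbour in the genome, had levels of 2.07, 2.16, 1.49, 2.14, -1.60 and -1.46 and -1.71, -3.02, -2.61, -2.53 and -2.14, and was above 3 times the floor on all tumor arrays and on 1 of 5 normal arrays. Replicates 1 to 4 stood far above the normal glands and replicates 5 and 6 just above the highest of them. The difference was 3.20 ± 0.73 (SE, adjusted p = 0.00415), and 0.87 (adjusted p = 0.258) in replicates 5 and 6 alone. miR-301, in the span of Ska2, differed by 1.28 ± 0.43 (SE, adjusted p = 0.0351) and miR-130a, known from blood vessel growth, by -0.99 ± 0.35 (SE, adjusted p = 0.0414). Both calls were lost in most fits that left out 1 array. miR-301 kept its call without MMTV-PymT 5 or 6 or normal 1, 4 or 5 (adjusted p = 0.0157 to 0.0949), and miR-130a without MMTV-PymT 6 or normal 2 (adjusted p = 0.00514 to 0.0855). miR-130a was at -0.12 and not called without scaling.

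Of 15 single miRNAs with known links to cancer 3 were higher (miR-21, miR-31 and miR-212) and 1 lower (miR-375), against 15.3% and 19.5% of all miRNAs, with a median of 0.09. miR-21, an oncogenic miRNA that targets Pdcd4, had levels of 7.14, 7.59, 6.79, 7.80, 7.09 and 6.18 in the tumors and 5.81, 5.05, 5.45, 5.86 and 5.83 in normal gland. It was higher in 6 of 6 tumors than in any normal gland, by 1.50 ± 0.34 (SE, adjusted p = 0.00415), with 1.73 (adjusted p = 0.000409) in replicates 1 to 4 alone and 1.03 (adjusted p = 0.159) in replicates 5 and 6 alone. miR-31, which limits metastasis in human breast cancer cells, had levels of 3.46, 4.33, 2.03, 4.84, 5.18 and 6.01 and 1.20, -0.04, -0.05, 2.12 and 0.90. Here replicates 5 and 6 were the 2 highest tumors, and replicate 3 overlapped the highest normal gland. The difference was 3.48 ± 0.64 (SE, adjusted p = 0.00119), or 11.2-fold, with 2.84 in replicates 1 to 4 and 4.77 (adjusted p = 0.000116) in replicates 5 and 6 alone. Outside this list, miR-9, a neural miRNA that targets E-cadherin in human breast cancer cells, had levels of -0.89, 2.64, 4.20, 1.75, 2.74 and 0.83 and -1.69, -1.42, -0.48, -2.16 and -1.95, a difference of 3.42 ± 0.72 (SE, adjusted p = 0.00281). Its tumors spread over 5 units, and 3 of 5 normal arrays had it above 3 times the floor. miR-9 falls outside the rules for naming miRNAs and was named with its value known.

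miR-33, which lies in an intron of Srebf2 and targets the cholesterol transporter Abca1, had levels of 2.91, 3.70, 2.04, 2.84, -0.38 and 0.31 in the tumors and -1.10, -1.15, -0.44, -1.41 and -1.18 in normal gland. The difference was 2.96 ± 0.65 (SE, adjusted p = 0.00337), and 1.02 (adjusted p = 0.157) in replicates 5 and 6 alone. miR-615, of the Hoxc cluster, had levels of 2.73, 2.54, 2.60, 2.69, 0.48 and -0.08 and -0.61, -1.33, -1.30, -1.60 and -1.41, a difference of 3.08 ± 0.54 (SE, adjusted p = 0.00104). In both, replicates 5 and 6 were the lowest tumors. miR-431, of the Dlk1-Dio3 region like the lower miR-382 and miR-154, had levels of 0.65, 0.10, 1.26, 0.40, 1.23 and -1.26 and -2.12, -3.00, -3.63, -2.47 and -3.23. All tumor arrays and no normal array had it above 3 times the floor, so its signal was at least 5.06-fold higher. For this bound each normal array was set at the lowest signal of any miRNA above 3 times the floor there. The fitted difference was 3.29 ± 0.46 (SE, adjusted p = 0.000291), and 2.88 (adjusted p = 0.00785) in replicates 5 and 6 alone. miR-374-5p was at -0.99 to 1.36 in the tumors and -3.26 to -1.88 in normal gland (2.83 ± 0.46 (SE, adjusted p = 0.000787)), with 1 of 5 normal arrays above 3 times the floor. miR-297b, from a large cluster in an intron of Sfmbt2, was at -0.68 to 0.70 and -2.54 to -0.89 (1.98 ± 0.40 (SE, adjusted p = 0.002)).

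Of the let-7 family, which represses Ras and Hmga2 and rises with differentiation, 2 of 9 members were lower, let-7b by -1.22 ± 0.43 (SE, adjusted p = 0.042) and let-7i by -0.76 ± 0.27 (SE, adjusted p = 0.0438), against 19.5% of all miRNAs. Without scaling neither was called, with let-7b at -0.35 and let-7i at 0.11, and 2 other members were higher. Both lost the call when any of 9 of the 11 arrays was left out. let-7b kept it without MMTV-PymT 5 or 6 (adjusted p = 0.00609 to 0.0894) and let-7i without MMTV-PymT 6 or normal 2 (adjusted p = 0.0263 to 0.094). Of the miR-30 family, linked to epithelial differentiation, 2 of 5 were higher, miR-30e by 3.03 ± 0.89 (SE, adjusted p = 0.0178) and miR-30a-5p by 1.26 ± 0.35 (SE, adjusted p = 0.0137). Of all miRNAs 15.3% were higher, and in these 2 members the groups overlapped. In replicates 1 to 4 alone miR-30e was at 4.32 (adjusted p = 6.71e-06). Neither was called in replicates 5 and 6 alone, with miR-30e at 0.46 (adjusted p = 0.722) and miR-30a-5p at 0.75 (adjusted p = 0.376). In the miR-99, miR-100 and miR-125 list, miR-99a (-1.73 (adjusted p = 0.0147)) and miR-125b (-1.29 (adjusted p = 0.0188)), which are cut from one transcript, were lower. Neither was called without scaling, at -0.85 and -0.42. Another member, miR-99b, was higher by 1.10 ± 0.38 (SE, adjusted p = 0.0401) and kept its call without MMTV-PymT 1, 5 or 6 or normal 1 (adjusted p = 0.0149 to 0.096).

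Other families showed few calls. In the miR-15 and miR-16 family (6 members), the miR-26 family (2) and the list of miR-192, miR-194 and miR-215 (3) no member was called. Of all miRNAs 34.7% were called. miR-148b was the 1 called member of 3 in its family, higher by 1.60 ± 0.39 (SE, adjusted p = 0.00612), with miR-148a, a miRNA of secretory epithelium, at -0.67 (adjusted p = 0.152). miR-96 of the miR-183 cluster was higher by 1.33 ± 0.47 (SE, adjusted p = 0.0414), and miR-29b, which targets collagens, and miR-181b, of lymphocyte development, were lower by -1.18 ± 0.41 (SE, adjusted p = 0.0373) and -1.15 ± 0.37 (SE, adjusted p = 0.0271), each the 1 called member of 3. These 3 calls were lost in 8, 6 and 6 of the 11 fits that left out 1 array. miR-96 kept its call without MMTV-PymT 3 or 5 or normal 1 (adjusted p = 0.00472 to 0.0947), miR-29b without MMTV-PymT 2, 5 or 6 or normal 4 or 5 (adjusted p = 0.0168 to 0.0902) and miR-181b without MMTV-PymT 5 or 6 or normal 1, 2 or 3 (adjusted p = 0.00651 to 0.077). The clusters active in embryonic stem cells had 2 higher and 2 lower of 12 miRNAs, near the shares of all miRNAs (15.3% and 19.5%), and 5 were above 3 times the floor on none of the 11 arrays.

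Markers of other cell types moved with the comparison. Of 5 miRNAs of stroma and smooth muscle, 4 were lower without overlap (10.2% of all miRNAs were lower without overlap), and their summed signal was 1.18 to 2.10% of the array total in the tumors and 3.95 to 5.15% in normal gland. miR-145, which with miR-143 specifies smooth muscle, had levels of 4.94, 4.44, 4.04, 3.96, 3.60 and 4.53 in the tumors and 7.03, 6.57, 6.61, 7.03 and 6.72 in normal gland, a difference of -2.54 ± 0.31 (SE, adjusted p = 0.000122). miR-143 differed by -1.47 ± 0.42 (SE, adjusted p = 0.0166), miR-199a, of fibroblasts and other mesenchymal cells, by -1.25 ± 0.33 (SE, adjusted p = 0.01) and miR-199b by -1.25 ± 0.31 (SE, adjusted p = 0.00718), while miR-214, from the same transcript as miR-199a, was at -0.15 (adjusted p = 0.72). Without scaling miR-145 alone of the 5 was called. The part of stroma in the differences above was not tested.

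Of 4 leukocyte miRNAs 2 were lower, against 19.5% of all miRNAs. miR-150, of mature lymphocytes, had levels of -2.41, 2.99, -1.17, -1.26, -0.98 and -0.65 in the tumors and 4.79, 4.66, 4.15, 2.92 and 2.84 in normal gland. Tumor replicate 2 lay within the normal range and the other 5 far below it, and the difference was -4.45 ± 0.78 (SE, adjusted p = 0.00104). miR-142-5p, found in all blood lineages, had levels of 2.23, 5.75, 2.44, 3.31, -0.22 and 1.42 and 1.04, 0.29, 0.42, 0.99 and 0.81, with the same replicate 2 highest. The difference was 1.78 and did not pass (adjusted p = 0.0869). In replicates 1 to 4 alone, a subset chosen after seeing the data, it was 2.72 (adjusted p = 0.00107). The summed signal of the list was 0.333 to 1.59% in the tumors, the highest in replicate 2, and 0.601 to 0.940% in normal gland. Myeloid miR-223 was lower (-1.06 (adjusted p = 0.0193)) and miR-155, of activated lymphocytes, was at 0.09 (adjusted p = 0.82). Without scaling miR-223 was not called, at -0.19, and miR-142-5p and miR-155 were called higher, so the balance of this list turned.

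The red cell miRNAs also differed. miR-486, which lies in the ankyrin gene Ank1, had levels of -0.74, -0.76, -0.85, 0.11, -0.59 and 0.98 in the tumors and 3.50, 2.90, 2.68, 3.27 and 2.90 in normal gland, a difference of -3.36 ± 0.37 (SE, adjusted p = 9.42e-05), and miR-451 differed by -2.26 ± 0.65 (SE, adjusted p = 0.0157). The call of miR-451 was lost without scaling, at -1.39, and with quantile normalization, at -1.72, while miR-486 kept it. miR-144, cut from the same transcript as miR-451, was at -0.38 (adjusted p = 0.776) over all 6 tumors, but at 1.22 (adjusted p = 0.0337) in replicates 1 to 4 alone and -3.57 (adjusted p = 0.000283) in replicates 5 and 6 alone. The summed red cell signal was 0.540 to 7.88% of the array total in the tumors, lowest in replicates 5 and 6, and 6.04 to 8.79% in normal gland. Of 3 fat-linked miRNAs, miR-378, of the Ppargc1b gene, was lower (-2.82 (adjusted p = 0.00357)) as was miR-193 (-2.11 (adjusted p = 0.0116)), and miR-365 was at -0.70 (adjusted p = 0.201). In replicates 5 and 6 alone neither miR-378 nor miR-193 was called, at -1.47 (adjusted p = 0.15) and -1.09 (adjusted p = 0.292). Without scaling miR-193 was not called, at -1.24, and miR-378 was. Normal replicates 4 and 5 were the lowest of the normal glands in miR-378 and miR-193, as in miR-805.

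Skeletal muscle miRNAs varied within both groups. miR-133b (-3.35 ± 1.11 (SE, adjusted p = 0.0319)) had levels of -1.78, 2.14, 1.47, 2.26, -1.21 and 3.62 in the tumors and 6.70, 0.79, 5.46, 3.74 and 5.50 in normal gland, with tumor replicates 1 and 5 and normal replicate 2 the lowest of their groups. Its call was lost without scaling, and without MMTV-PymT 1 or normal 1, 3 or 5 (adjusted p = 0.00686 to 0.0876). miR-1 was at -0.46 (adjusted p = 0.804) and miR-206 at -1.81 (adjusted p = 0.0781). The summed muscle signal was 0.0730 to 2.46% in the tumors and 0.100 to 2.66% in normal gland, and its part in the other differences was not tested. The epithelial list held 5.38 to 9.68% of the signal in the tumors and 4.58 to 8.65% in normal gland, so both tissues carried the miRNAs of epithelium. The 6 markers of other organs held at most 0.104% on any of the 11 arrays. Of the endothelial markers only miR-126-5p was on the array, at 0.97 (adjusted p = 0.211) and near the floor.

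**Figure D5:**
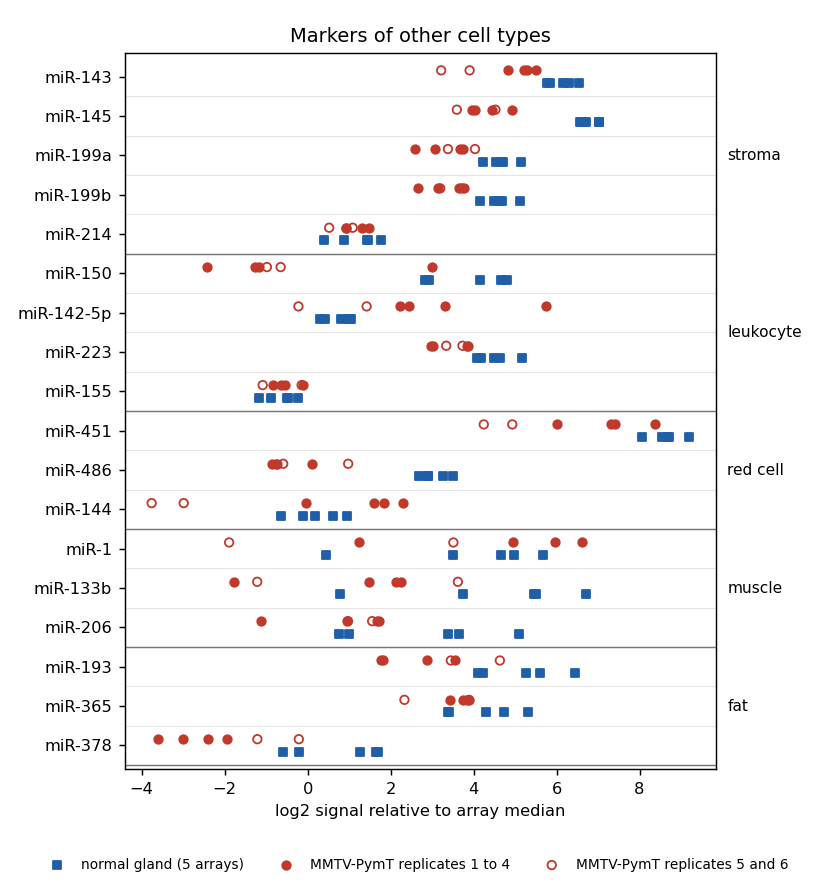
Log2 signal relative to the array median (x axis) of marker miRNAs of stroma, leukocytes, red cells, skeletal muscle and fat on each array, with normal glands as squares, MMTV-PymT replicates 1 to 4 as filled circles and replicates 5 and 6 as open circles. miR-143, miR-145, miR-199a and miR-199b are lower in all tumors, and replicates 5 and 6 have the lowest miR-451 and miR-144.

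The study listed 19 miRNAs for normal gland, chosen on these samples and so no independent evidence, and 16 of them were lower in MMTV-PymT tumors, 14 without overlap. Those that did not pass were miR-146b at -0.18 (adjusted p = 0.649), miR-148a at -0.67 (adjusted p = 0.152) and miR-424 at -0.36 (adjusted p = 0.382). Of the 4 it listed for MMTV-PymT, also on these samples, miR-27b and miR-671 (1.55 ± 0.29 (SE, adjusted p = 0.00122)) were higher than in normal gland without overlap. The other 2, miR-18 at 1.03 (adjusted p = 0.0927) and miR-7, which targets the EGF receptor, at 0.57 (adjusted p = 0.152), did not pass. The study chose these 4 by their level in MMTV-PymT against the pooled samples of all other models, not against normal gland alone. All 4 were called higher in the comparison with other MMTV models that follows.

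To ask how far these levels are shared by other FVB tumors with the same promoter, the 6 MMTV-PymT tumors were set against the unweighted mean of MMTV-C-Myc (4 arrays), MMTV-H2N (the Her2/neu receptor, 5), MMTV-Hras (5) and MMTV-Wnt (4) tumors. This comparison shares the MMTV-PymT arrays with the one against normal gland and uses no normal arrays. There were 24 miRNAs higher (7.19% of those tested) and 74 lower (22.2%), together 29.3%, with a median difference of -0.13. Some of the lower calls were of miRNAs near the floor. With only the 298 miRNAs that passed the filter on the floor, 24 were higher and 54 lower. The groups did not overlap for 1 miRNA, the embryonic stem cell miRNA miR-302, which was lower and above 3 times the floor on no MMTV-PymT array (-2.39 ± 0.36 (SE, adjusted p = 8.01e-05)), and which is named because of this value. Replicates 1 to 4 alone gave 50 higher and 90 lower, and replicates 5 and 6 alone gave 0 and 0 with limma (19 and 47 at an unadjusted p under 0.05). With these 2 arrays, 18 of the 24 and 64 of the 74 had the same sign, and 14 of the 98 a difference at least as large as from all 6, among them miR-146b at 2.27 and miR-31 at 3.74. The split followed the scaling, with 16 higher and 116 lower after scaling to the 75th percentile, 22 and 30 after quantile normalization and 58 and 16 without scaling.

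miR-146b, a relative of the inflammation-linked miR-146, was at 6.08 ± 0.31 (mean and SD, n = 6) in MMTV-PymT tumors. It was at 2.97 ± 1.08 in MMTV-C-Myc, 3.86 ± 1.64 in MMTV-H2N, 4.53 ± 0.98 in MMTV-Hras and 4.24 ± 0.61 in MMTV-Wnt tumors, a difference of 2.18 ± 0.46 (SE, adjusted p = 0.00108), and at 6.26 ± 0.54 in normal gland. Its level in MMTV-PymT was thus above those of the other MMTV models while the test against normal gland gave no call. miR-9 was at 1.88 ± 1.76 against means of 0.23, -1.14, -1.57 and -1.37 in these 4 models (2.84 ± 0.68 (SE, adjusted p = 0.00294)). miR-431 (2.27 ± 0.38 (SE, adjusted p = 0.000159)), miR-20b (2.06 ± 0.51 (SE, adjusted p = 0.00359)), miR-7 (1.43 ± 0.35 (SE, adjusted p = 0.00301)) and miR-671 (1.29 ± 0.30 (SE, adjusted p = 0.00245)) were higher as well. The call of miR-671 was lost without the MMTV-Wnt tumors (difference 0.77, adjusted p = 0.0584), and the other 3 were called with each other model left out.

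miR-21 was at 7.10 ± 0.58 in MMTV-PymT tumors, 5.82 ± 3.30 in MMTV-C-Myc, 6.67 ± 0.62 in MMTV-Hras and 6.87 ± 0.69 in MMTV-Wnt tumors, but at -1.17 ± 1.06 in MMTV-H2N tumors. The difference of 2.55 ± 0.62 (SE, adjusted p = 0.00326) rested on the MMTV-H2N tumors, and without them it was 0.64 (adjusted p = 0.527). miR-31 (2.45 (adjusted p = 0.00301)) and miR-18 (1.50 (adjusted p = 0.00465)) also lost the call without MMTV-H2N, at 1.94 (adjusted p = 0.056) and 0.78 (adjusted p = 0.172). miR-27b differed by 1.13 (adjusted p = 0.0249) and lost the call without MMTV-PymT 1 or 2 (adjusted p = 0.0507 and 0.0718) or without MMTV-C-Myc (adjusted p = 0.0503).

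Among the lower miRNAs, miR-222 was at 0.53 ± 0.81 in MMTV-PymT tumors. It was at 2.39, 1.80, 2.60 and 2.10 in MMTV-C-Myc, MMTV-H2N, MMTV-Hras and MMTV-Wnt tumors, a difference of -1.69 ± 0.35 (SE, adjusted p = 0.00106), and miR-221 differed by -1.36 ± 0.34 (SE, adjusted p = 0.0037). Of this pair miR-222 was also called without scaling and miR-221 was not (-0.83, adjusted p = 0.121). miR-486 (-1.47 (adjusted p = 0.00193)), miR-449 (-1.66 (adjusted p = 0.00594)) and miR-378 (-1.59 (adjusted p = 0.00193)) were lower too, and none of these 3 was called without scaling. miR-10b and miR-103, in contrast, gave no call against the other models, at -0.37 (adjusted p = 0.497) and -0.50 (adjusted p = 0.212). miR-10b was at 1.20 in MMTV-PymT and at 1.46, 1.51, 1.37 and 1.93 in the other 4 models, all below the 4.66 of normal gland. Against the other models the replicates 5 and 6 alone turned the sign of miR-20b, to -0.25, and of miR-449, to 0.35.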

How the data were processed

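Total RNA (mirVana kit) received a Hy3 label, and the authors measured it on custom Agilent arrays of mouse miRNA probes designed from miRBase, read with Feature Extraction. The deposited raw table holds a signal intensity for each of 1336 spots, 4 for each of 334 miRNAs, with no scaling between arrays, and 1 of its value columns that matched no sample was not used. The deposited log2 table holds the authors' values after global median scaling. A check on the raw table showed that each column equals log2 intensity minus the array median plus a constant (column medians 8.0032 to 8.00326). Background handling before deposit and dates of hybridisation are not given in the sources used here.

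Groups were taken from the labels. Intensities were put on the log2 scale, centred on the median spot of their array, and averaged over the 4 spots per miRNA. To gauge background, an array's floor was set at the 5th percentile of its spots, and a miRNA counted as above it at more than 3 times that value. The groups were compared with limma 3.58.1 (lmFit and eBayes, R 4.3.3), two-sided, with Benjamini-Hochberg adjustment over 334 miRNAs and a threshold of 0.05. The fit against normal gland held the 11 arrays and the fit against other MMTV models 24. Single array measures were compared by an exact permutation test. The calculation was tested on simulated data. Signal shares are sums of unscaled intensity.

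Members and miRNA lists were chosen with earlier results of these data known. Named miRNAs are the 10 with the largest difference in each direction among those called, without overlap and above 3 times the floor on every array of the higher group, up to 4 members of each of 31 lists with the largest absolute difference, and those the study lists for MMTV-PymT and normal gland. The first rule, applied to the comparison with other MMTV models, named 0 miRNAs. Further members of some lists are also given, and miR-9 was named outside these rules with its value known. Of the 30 miRNAs with printed sequences, all were matched by name to RefSeq. The number of arrays limits the precision. Alternatives were other scalings, subtraction of the floor with 50 added, the deposited log2 table, only miRNAs above the floor, array weights, fits over more groups, the methods' t-test, leaving out each array or model, the replicate number as a block, and replicates 1 to 4 or 5 and 6 alone. Nothing in the labels says that the replicate numbers pair the samples.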

Additional observations from a re-analysis of the deposited data

Results flagged for a closer look

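In 9 of 186 groups of 5 or 6 values, 1 array stood far from the others, and chance alone gives about 1 in 20. Normal replicate 1 was high in 3 of them, miR-19b (4.31, the next at 3.18), miR-27a (5.32, the next at 4.46) and miR-338 (4.89, the next at 3.46). Among the tumors, lymphocyte miR-150 was high in MMTV-PymT replicate 2 (2.99, the next at -0.65), the tumor that also had the highest miR-142-5p. miR-139 was high in replicate 1 (-1.25, the next at -2.70). Low values were those of muscle miR-206 in replicate 1 (-1.11, the next at 0.96), miR-130b in replicate 6 (0.15, the next at 1.47), and miR-365 (2.33, the next at 3.43) and miR-30a-5p (4.43, the next at 5.40) in replicate 5.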

How the results depend on the processing

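Against normal gland (51 higher and 65 lower), calls were 115 and 23 without scaling, 105 and 22 unscaled after the floor was subtracted, 97 and 129 with array weights, and 15 and 20 with the methods' t-test at their threshold (45 and 60 after Benjamini-Hochberg). They were 91 and 112 from replicates 1 to 4 alone and 23 and 30 from replicates 5 and 6 alone. With 1 array left out they ran from 37 to 68 and from 49 to 82. The other scalings, the deposited log2 table, the fits over more groups and the filter on the floor stayed within 1.5 times of both counts. Against the other MMTV models (24 higher and 74 lower), calls were 58 and 16 without scaling, 63 and 12 unscaled after the floor was subtracted, and 71 and 134 with array weights. The lower calls were 116 at the 75th percentile and 30 with quantile normalization. Without MMTV-C-Myc 41 were higher, and without MMTV-H2N 12 were higher and 43 lower. From replicates 1 to 4 alone 50 were higher, and from replicates 5 and 6 alone limma called 0 and 0 (19 and 47 at an unadjusted p under 0.05). With 1 array left out the counts ran from 16 to 38, the highest without MMTV-PymT 6, and from 55 to 89.

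The count of miRNAs past 3 times the floor differed by 29.6, by 24.4 to 33.7 with 1 array left out and by 12.4 in replicates 5 and 6 alone (exact permutation p = 0.333). The difference in the floor ran from 0.138 to 3.46 with 1 array left out.

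Of the named miRNAs, 63 of 93 were called against normal gland, and 51 of these kept the call with each array left out. Against the other models 19 of 25 did. miR-144 turned to 1.22 from replicates 1 to 4 alone, and let-7i to 0.11 without scaling, with or without the floor subtracted. Against the other models, replicates 5 and 6 alone turned miR-20b to -0.25, miR-301b to -0.95, miR-33 to -0.53, miR-129-5p to 0.87, miR-449 to 0.35 and miR-338 to 0.072. Same-numbered arrays did not deviate together (correlations -0.243 to 0.149). That gives no sign that the numbers pair the samples, but so few arrays cannot exclude shared processing. With the replicate number as a block, 69 were higher and 76 lower than in normal gland, and 53 and 81 against the other models. Number 6 occurs only in MMTV-PymT, so the block takes that array out of the differences and is close to leaving it out. The causes of these shifts were not tested. Folds of miRNAs near the floor are limited by it, and 44 of 334 were above 3 times the floor on none of the 11 arrays.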
